A study of Mus musculus with 8 samples.

Results

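In testes without H3f3b, 331 autosomal H3K4me3 regions of middle width had no counterpart in either null library. They are described here among 16000 union regions of chromosomes 1 to 19, which were built by merging the region lists of 4 libraries where regions overlapped or touched. Members were chosen by covered length in all 4 libraries: a union region belonged to the set if its regions covered 1000 to 2999 bp in both wild-type libraries and 0 bp in both null libraries. Of the 7241 union regions with 1000 to 2999 bp in both wild-type libraries, called mid-width below, 331 had no region in either null library (4.57%), 406 were found in 1 null library and 6504 in both. The last 6504 are called kept regions.

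Whole testes of adult C57BL/6 mice were used for ChIP-seq with an antibody against H3K4me3, histone H3 with 3 methyl groups on lysine 4. The H3f3b null group (KO) comprised the H3K4me3 libraries KO 67 and KO 73, and the group of genotype H3f3b WT/WT (WT) comprised WT 66 and WT 74. The labels give no age beyond adult and do not say how the null allele was made. They do not state that each number is a separate animal, so the spread between libraries may be technical. The 4 input libraries were not analysed here. The labelled tissue could not be checked against marker genes, because no gene positions in mm9, the build of the lists, were used here. Regions are therefore given by their mm9 positions and not by gene.

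H3K4me3 is placed by methyltransferases of the SET1 and MLL families and is found mainly at the starts of genes that are active or poised. H3f3b encodes H3.3, a variant of histone H3 that enters chromatin outside DNA replication, and a separate gene, H3f3a, codes for the same protein. In the testis, H3.3 is known to replace other forms of H3 on the sex chromosomes in meiosis, before protamines replace most histones in late spermatids. A testis holds germ cells of every stage together with Sertoli, Leydig and other somatic cells. A region missing from a whole-testis list can therefore come from fewer cells of a type or from less of the mark per cell, and these cannot be told apart here.

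Absence from both KO libraries was less frequent among mid-width regions than among short ones. The 331 regions were 4.57% of the mid-width regions (95% exact binomial interval 4.1 to 5.08). The autosomal regions of both WT libraries numbered 12226, and neither KO library held 1426 of them, 11.7%. The share was 30.4% among the 2175 regions below 1000 bp in both WT libraries and 1.68% among the 713 regions of at least 3000 bp in both. In the opposite direction, 6282 regions had 1000 to 2999 bp in both KO libraries, and neither WT library held 3 of them, 0.0478%. Those 3 lay at chr1:173001914-173003107, chr2:169458791-169460055 and chr4:100964789-100966239. Intervals of shares cover counting error only. The rule fixes coverage in all 4 libraries, so none of these counts was tested, and a two-sided exact permutation test over 2 against 2 libraries could not fall below p = 0.333.

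The counts depended on the lists that entered them. Leaving out KO 67 gave 406 absent regions and leaving out KO 73 gave 662. Both counts could only rise, since the rule then asks for absence from a single KO library. Leaving out WT 66 gave 682 and leaving out WT 74 gave 640. In the opposite direction the 3 regions became 25 without KO 67, 5 without KO 73, 9 without WT 66 and 4 without WT 74. With each list cut to the length of the shortest, the number absent was 460, against 16 in the opposite direction. With WT 74 and KO 73 alone, it was 772 against 82. The whole lists held 10502 regions in KO 67 and 12497 in KO 73, against 14078 in WT 66 and 14551 in WT 74. The step of the score grid, if it stands for 1 tag, put the depth of KO 67, WT 66 and WT 74 at 4.46, 1.66 and 1.04 times that of KO 73. The absolute depth is unknown.

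The widest of the 331 regions had long WT domains and no KO call. The region chr17:65857919-65861050 covered 0 bp in KO 67 and KO 73, against 2857 bp (WT 66) and 2928 bp (WT 74). The region chr13:70070626-70073613 covered 0 bp in both KO libraries, against 2806 and 2790 bp in WT 66 and WT 74. These WT pairs differed by less than 100 bp, so the 2 WT lists gave nearly the same length there. Regions were ranked on the shorter of their WT lengths, and 4 of the first 8 were on chromosome 5. The region chr5:11843709-11846633 had 2925 and 2831 bp in WT 66 and WT 74, and chr5:11414490-11417435 had 2844 and 2760 bp. Both belong to a group of neighbouring members that is described below. The region chr5:73870770-73873888 covered 2873 and 2716 bp and had the highest score percentile of all 331, with 77.2 in WT 66 and 80.9 in WT 74. It lay 7347 bp from a region found in all 4 libraries. The other 3 of the 8 were chr5:125782952-125785715, chr6:57435214-57438155 and chr7:28306691-28311256, with WT lengths from 2580 to 2942 bp. The union region on chromosome 7 spans 4566 bp. Its single pieces, 2932 bp in WT 66 and 2715 bp in WT 74, therefore overlap only in part.

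Over all 331 regions the covered length in WT 66 ran from 1001 to 2942 bp, with a median of 1603 bp. In WT 74 it ran from 1000 to 2952 bp, with a median of 1619 bp. Kept regions had medians of 1751 and 1630.5 bp in WT 66 and WT 74. The 331 regions were spread over the whole range of widths. Their share was 4.78% among mid-width regions with a mean WT length below 1500 bp and 5.02% between 1500 and 2000 bp. It was 3.88% between 2000 and 2500 bp and 3.34% from 2500 bp upwards.

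The 331 regions had low scores for their width in WT. The score is the authors' own value for each region and has no stated unit, so it was used only within a list. The median score percentile of the 331 regions was 40.3 in WT 66 and 45.9 in WT 74, against 68.8 and 69.5 for kept regions. Divided by covered length, the median score was 44.2 per kb in WT 66 and 44.97 per kb in WT 74, against 80.2 and 79.97 per kb in kept regions. All 331 regions lay below the median score per kb of mid-width regions in WT 66, and all 331 did so in WT 74. Of kept regions, 2887 of 6504 (44.4%) lay below that median in each library. Of the 406 regions found in a single KO library, 401 (98.8%) lay below it in WT 66 and 402 (99.0%) in WT 74. A position below the median was therefore not particular to the 331 regions. The middle 50% of the 331 regions spanned 41.1 to 47.4 per kb in WT 66, and that of kept regions spanned 64.3 to 96.4 per kb.

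**Figure D1:**
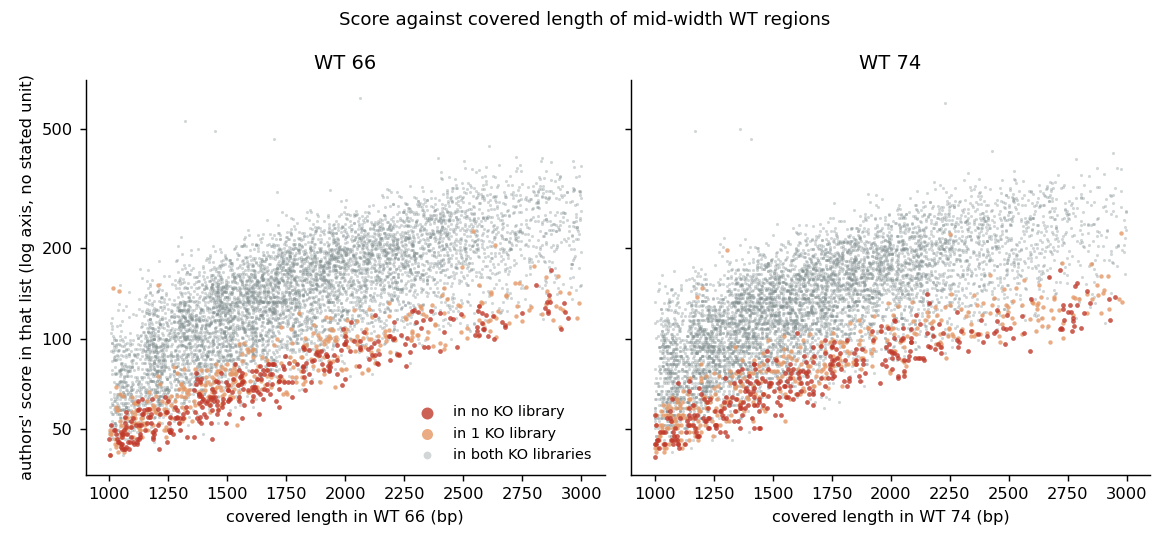
Each point is 1 mid-width region, with its covered length in bp on the x axis and the authors' score, summed over its pieces, on a logarithmic y axis, for WT 66 (left) and WT 74 (right). Regions in no KO library lie along the lower edge of the cloud at every width, with a median of 44.2 per kb in WT 66 and 44.97 per kb in WT 74.

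That lower edge is near the score per kb of the narrowest regions at the smallest score. A region of the narrowest width, 501 bp, at the smallest score of its list has 40.1 per kb in WT 66 and 41.7 per kb in WT 74. This is not a floor, as the smallest score per kb in the lists was 29.8 in WT 66 and 30.7 in WT 74. The score per kb was below 50 in 294 of the 331 regions in WT 66 (88.8%) and in 257 in WT 74 (77.6%). The shares among kept regions were 5.78% and 6.21%. Among regions found in a single KO library they were 63.8% in WT 66 and 58.1% in WT 74. The part of list depth and of the calling threshold in the absence of these regions from KO was not tested. The median score of the 331 regions was 67.3 in WT 66 and 72.5 in WT 74, which is 3.35 and 3.47 times the smallest score of the same list.

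Ranking the mid-width regions by score per kb in WT concentrated the 331 regions more than ranking by score or by width. The lowest decile by score per kb, averaged over the ranks in WT 66 and WT 74, held 267 of the 331 regions among its 725 members (36.8% absent). The next decile held 57 and the one above it 7, and the 7 higher deciles held 0. The lowest decile by score, ranked by the percentile of the best piece, held 162 of the 331 regions, and the lowest decile by width held 33. Score per kb uses the score summed over pieces, so these rankings differ in that as well as in the division by length. Taken from WT 66 alone, the lowest decile by score per kb held 254, and taken from WT 74 alone it held 234. The 2 lowest deciles together held 97.9% of the 331 regions, and from 86.4% to 99.5% of the regions chosen under the alternatives. These bins were chosen after the values had been seen, and score goes with calling, so they are a description.

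**Figure D2:**
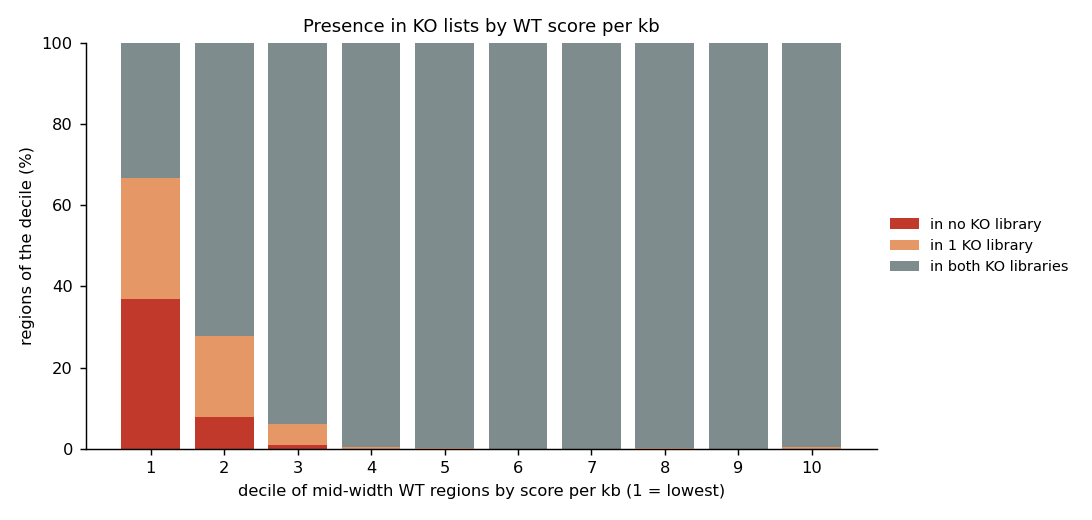
Mid-width regions were ordered by score per kb in WT and divided into deciles (x axis, 1 is the lowest), and the y axis gives the percentage of each decile found in no, 1 or both KO libraries. In the lowest decile 36.8% were in no KO library, and from the fourth decile upwards 0% were.

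At a like score percentile, wider regions were absent more often. A wider region of the same score has a lower score per kb, so this largely restates the ranking above. The percentile is that of the best piece, so a region in several pieces is placed lower than its summed score would put it. Among mid-width regions with a mean score percentile from 40 to below 50, 19 of 678 were absent below 1500 bp (2.8%), 90 of 271 between 1500 and 2000 bp (33.2%) and 15 of 27 between 2000 and 2500 bp (55.6%), with 0 of 2 from 2500 bp upwards. From the 50th to below the 60th percentile the counts over the same widths were 1 of 673, 16 of 475 and 34 of 138. From the 60th to below the 70th percentile, 0 of 488 and 0 of 592 were absent below 2000 bp, against 11 of 42 from 2500 bp upwards. At or above the 80th percentile, 0 of 1851 mid-width regions were absent.

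**Figure D3:**
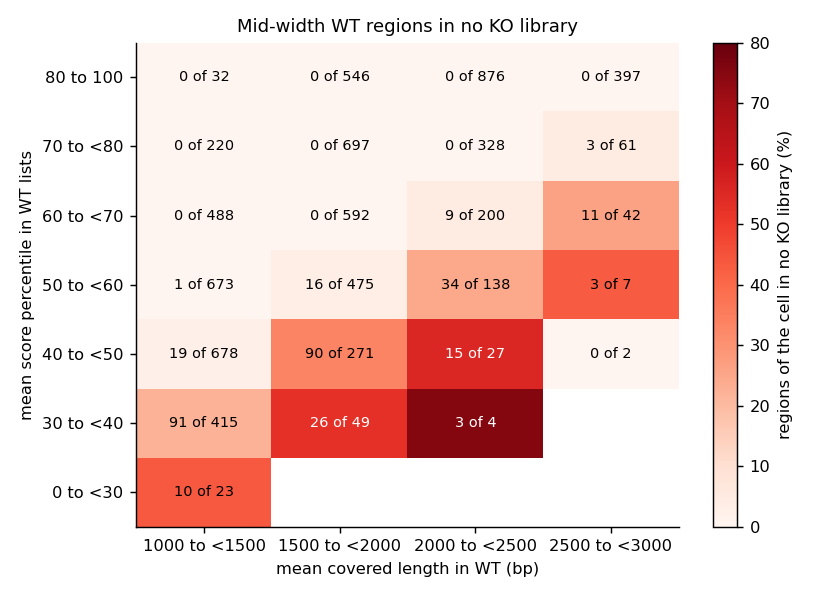
Cells give mid-width regions by mean covered length in WT (x axis, bp) and mean score percentile in the WT lists (y axis), with the number in no KO library out of all in the cell, and colour gives that share in percent. The coloured band runs upwards to the right, from 91 of 415 at the 30th to below the 40th percentile and below 1500 bp to 11 of 42 at the 60th to below the 70th percentile and at least 2500 bp.

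Regions found in 1 KO library stood between the 331 regions and the kept ones in score per kb. Their medians were 47.5 and 48.8 per kb in WT 66 and WT 74. Of the 406, 331 were found in KO 73 alone and 75 in KO 67 alone. The median KO length was 647 bp over the 75 regions found in KO 67 alone and 729 bp over the 331 found in KO 73 alone. In WT 66 and WT 74 the medians were 1625 and 1613.5 bp over all 406 regions, so the KO and WT medians do not cover the same regions. In 120 of them the KO region had the narrowest width, 501 bp. The 241 kept regions of the lowest decile by score per kb had median lengths of 886 bp (KO 67) and 1192 bp (KO 73), against 1556 bp in WT 66 and also in WT 74. In the highest decile the KO medians were 1756 and 1689 bp, against 1945 and 1807 bp in WT 66 and WT 74. Mid-width regions were chosen by their length in WT, while a KO region could be as narrow as 501 bp. The lowest decile was also chosen for being wide for its score in WT. Shorter KO medians can arise from this choice alone, most of all in the lowest decile. Whether KO regions were narrower beyond that was not tested.

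The WT libraries differed more from each other in the 331 regions than in kept regions, and regions found in 1 KO library stood between. The median absolute log2 ratio of covered length, WT 74 over WT 66, was 0.29 in the 331 regions and 0.15 in kept regions. In regions found in 1 KO library it was 0.23. More than 1 piece was called in at least 1 WT library in 42 of the 331 regions (12.7%) and in 52 of 6504 kept regions (0.80%). Among regions found in 1 KO library this held for 23 of 406 (5.67%). The region chr11:20546842-20548926, for example, was split into 2 pieces with 1002 bp in WT 66 and was a single piece of 2085 bp in WT 74. WT 74 was the wider of the pair in 177 of the 331 regions (53.5%), against 34.3% of kept regions. The share was 47.8% among regions found in 1 KO library.

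The bounds cut through a continuous range. Just inside the lower bound, chr14:52210741-52211929 had 1189 bp (WT 66) and 1000 bp (WT 74), and chr16:26876512-26878306 had 1001 and 1551 bp. Just outside it, chr14:7421859-7423096 covered 1139 and 998 bp, and chr17:14197111-14198808 covered 997 and 1458 bp. Just inside the upper bound, chr9:36825119-36828070 had 1630 bp (WT 66) and 2952 bp (WT 74), and just outside it chr10:93281172-93284171 covered 2121 and 3000 bp. A further 391 regions absent from both KO libraries were mid-width in 1 WT library and below 1000 bp in the other. Another 30 were mid-width in 1 WT library and at least 3000 bp in the other. On the side of the KO bound, the region chr1:26742899-26745478 had 501 bp in KO 67 and 0 bp in KO 73, against 2542 and 2253 bp in WT 66 and WT 74, and so was left out. Its score per kb, 90.0 in WT 66 and 99.0 in WT 74, was above that of any member. The region chr1:46085071-46087731, with 0 bp in KO 67 and 501 bp in KO 73, was left out too. It had 35.3 and 45.4 per kb in WT 66 and WT 74, within the range of the members.

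The 331 regions were not spread evenly over the autosomes. Chromosome 14 held 42 of them among its 322 mid-width regions, 13.0% (9.56 to 17.2), and chromosome 5 held 38 of 538, 7.06% (5.05 to 9.57). On the other chromosomes the share ran from 2.39% (14 of 585) on chromosome 2 to 6.45% (16 of 248) on chromosome 16. Without chromosomes 14 and 5, 251 of 6381 mid-width regions were absent, 3.93%. On chromosome 14, 18.9% of the mid-width regions belonged to the lowest decile by score per kb, and 35 of those 61 regions were absent (57.4%). On chromosome 5, 10.4% belonged to that decile and 29 of 56 were absent (51.8%), and on the other autosomes 9.53% belonged to it and 203 of 608 were absent (33.4%). The 13.0% on chromosome 14 became 15.2% without KO 67, 21.4% without KO 73, 17.9% without WT 66 and 20.9% without WT 74. Leaving out any library but KO 67 thus moved it past its interval, and leaving out KO 73 or WT 74 moved it by over 1.5 times. The share over all autosomes rose as well, from 4.57% to 5.61% without KO 67 and 9.14% without KO 73. It was 8.21% without WT 66 and 7.42% without WT 74, so chromosome 14 stayed above it each time. Neighbouring regions are not independent, so these shares were not tested.

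**Figure D4:**
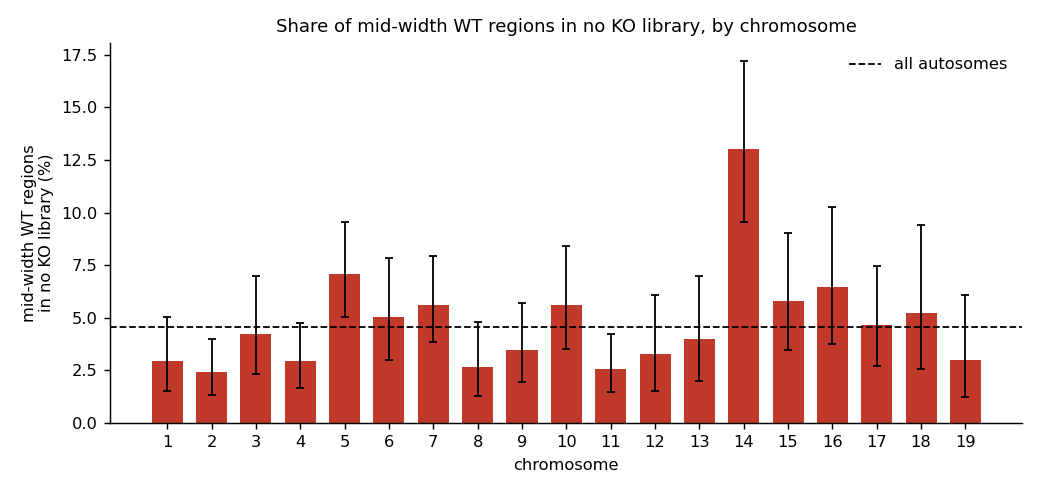
Bars give the percentage of mid-width regions (y axis) in no KO library on each autosome (x axis), with 95% exact binomial intervals that cover counting error only, and the dashed line gives the 4.57% of all autosomes. Chromosome 14 reached 13.0% and the lower end of its interval, 9.56%, lay above the line.

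Most of the excess on chromosome 14 came from 2 stretches. When members up to 1 Mb apart were chained, 191 of the 331 regions had no other member within that distance, and 39 lay in 5 groups of at least 4. The group at chr14:4101289-8476714 held 12 members among its 18 mid-width regions, and that at chr14:42197878-44254924 held 13 among 22. In these 2 stretches 25 of 40 mid-width regions were absent (62.5%), against 17 of 282 on the rest of chromosome 14 (6.03%). The first stretch held 2 union regions with a KO 67 call and 16 with a KO 73 call, against 52 in WT 66 and 49 in WT 74. The second held 3 in KO 67 and 10 in KO 73, against 48 in WT 66 and 44 in WT 74. KO 67 was thus lower than KO 73 in both stretches, and both KO libraries were lower than both WT libraries. The stretches were found by where members lie, so their shares are a description.

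The largest group on chromosome 5, chr5:10864126-11918999, held 6 members among 9 mid-width regions. It had 0 union regions with a KO 67 call and 6 with a KO 73 call, against 17 in WT 66 and 17 in WT 74. It contains 2 of the 8 widest members. Another member, chr5:11915983-11918999, covered 2868 bp as 1 piece in WT 66 and 1881 bp as 2 pieces in WT 74. The group at chr7:48242857-48466822 was the most compact, with 4 members among 5 mid-width regions in 224 kb. It had 1 union region with a call in KO 67 and 1 in KO 73, against 6 in each WT library. The last group, chr5:112634972-114266646, differed from the others in that 7 of its 15 both-WT regions were found in all 4 libraries. Outside the 5 groups, 292 of 7178 mid-width regions were absent, 4.07%.

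The next region along the chromosome was absent from KO more often after a member than after a kept region. Counting regions of any width, the next both-WT region after a member was found in both KO libraries in 212 of 331 cases (64%), in 1 KO library in 51 (15.4%) and in no KO library in 68 (20.5%). After a kept region the shares were 80.4%, 9.45% and 10.2%. Outside the 5 groups, a split chosen after the values had been seen, 209 of 292 members were followed by a region of both KO libraries (71.6%) and 43 by a region of none (14.7%). Consecutive both-WT regions were both members in 21 cases, 6.34% of the members. This share was 7.39% without KO 67, 10.3% without KO 73, 10.9% without WT 74 and 9.53% without WT 66. Each of those sets held more than 331 regions, and a larger set is more likely to hold neighbours. The share was 2.79% without chromosomes 14 and 5. There were 17 runs of 2 and 2 runs of 3. A run of 3 lay at chr14:43544773-43546209, chr14:43566474-43568235 and chr14:43621949-43623567, with 1437, 1762 and 1021 bp (WT 66) and 1225, 1575 and 1575 bp (WT 74). The other lay on chromosome 5 and joined 2 members of the group described above to chr5:13767417-13769714, with 2298 bp (WT 66) and 2154 bp (WT 74). A close pair, chr5:106793983-106796070 and chr5:106796627-106798871, lay 556 bp apart and had 1681 and 1625 bp (WT 66) and 2088 and 1724 bp (WT 74).

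Distances to neighbouring regions were alike for WT neighbours and longer for neighbours found in all 4 libraries. The nearest other both-WT region lay at a median of 29.4 kb from a member and 31.6 kb from a kept region. The nearest other region found in all 4 libraries lay at a median of 58.2 kb from a member and 38.1 kb from a kept region. From a region found in 1 KO library it lay at a median of 48.9 kb. Within 100 kb, 204 of 331 members (61.6%) had such a neighbour, against 78.1% of kept regions. At the short end, 20 members (6.04%) lay within 1 kb of another both-WT region, against 0.969% of kept regions. The share was 3.20% among regions found in 1 KO library.

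**Figure D5:**
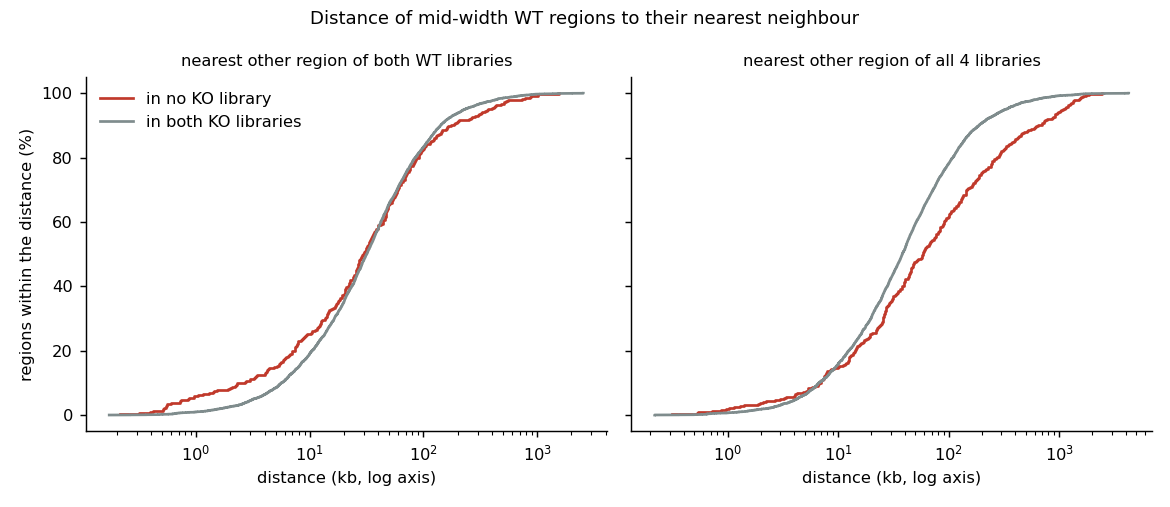
Curves give the percentage of mid-width regions (y axis) whose nearest neighbour lies within the distance on the logarithmic x axis (kb), for regions in no KO library and in both KO libraries. The medians are 29.4 and 31.6 kb to a region of both WT libraries (left) and 58.2 and 38.1 kb to a region of all 4 libraries (right).

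A union region with a KO call lay within 1 kb of 15 members (4.53%), against 57 of 6504 kept regions (0.876%), leaving out the region itself. Within 5 kb the numbers were 38 members (11.5%) and 521 kept regions (8.01%). Of the 406 regions found in 1 KO library, 5 (1.23%) had another region with a KO call within 1 kb. Within 5 kb, 47 of them did (11.6%), a share like that of the members. The median distance was 35.4 kb from a member and 31.6 kb from a kept region. Without chromosomes 14 and 5 the members' median was 28086 bp, so the longer distance did not hold on the other autosomes. The kept regions were not recomputed in that way. The nearest was 161 bp from chr17:88704385-88706184, of 1071 bp (WT 66) and 1414 bp (WT 74). The next were 214 bp from chr17:7097522-7099515, 312 bp from chr11:101209087-101210725, 313 bp from chr2:25072484-25075032 and 470 bp from chr9:107900393-107901978. In these 5, WT 74 had the longer coverage except on chromosome 11, with 1506 bp against 1636 bp in WT 66. When regions up to 2000 bp apart were merged, 23 of the 331 members fell into a merged region with a KO call, 9 fell into one with a WT length outside the bounds and 299 still met the rule. A further 43 merged regions without a member met it, so the total was 342.

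At the other end, chr10:47145555-47146916 lay 1846816 bp from any union region with a KO call. Its WT lengths were 1049 bp (WT 66) and 1362 bp (WT 74). The region chr15:47352663-47355517, with 2855 bp (WT 66) and 1402 bp (WT 74), was 1540690 bp away, and no other both-WT region was nearer. The regions chr14:3064809-3066799 and chr14:3069088-3071053 lay 2288 bp apart near the start of the chromosome, at least 1281455 bp from a KO call. The fifth, chr3:73928609-73931034, was 1037036 bp away, with 1652 bp (WT 66) and 1277 bp (WT 74). These remote members had score percentiles from 26.3 to 66.3 in WT 66 and from 32.6 to 47.2 in WT 74, which lie within the range of the whole set.

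The members with the highest scores bound the pattern from above. Besides 5 of the widest regions, the first 8 by the lower of the WT score percentiles were chr8:83603590-83605879, chr11:114077443-114079803 and chr12:114287677-114290237. The first of these had 2290 and 2279 bp in WT 66 and WT 74, at score percentiles 63.9 and 66.7. The one on chromosome 11 had 2361 and 2163 bp, at percentiles 63.3 and 69.5, and the one on chromosome 12 had 2561 and 2109 bp, at percentiles 63.3 and 65.8. Their scores per kb ran from 48.1 to 54.5 in WT 66 and from 53.8 to 60.6 in WT 74, below the medians of 80.2 and 79.97 per kb in kept regions. The nearest KO calls were 63627, 28086 and 21922 bp away.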

How the data were processed

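The data were 4 region lists, with 1 list per H3K4me3 library. Bowtie, HOMER and the build mm9 are named, per the submitters' processing notes, and versions, settings, filters and use of the inputs are not stated in what was used here. The score is as deposited by the authors and has no stated scale. Other deposited values are the start and end of each region in bp, and starts were converted to count from 1. Lists were made per library and not on pooled reads.

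Regions were merged and measured with Python 3.11.15, pandas 2.3.3 and NumPy 2.4.6. The merging, coverage and distance steps were tested on simulated lists. The score percentile of a union region is that of its best piece in the whole list, and score per kb is the summed score over the covered length. Distances run between union regions. Exact binomial (Clopper-Pearson) intervals came from SciPy 1.17.1. Score steps were the largest for which every score below 100 lay within 0.055 of a multiple. Samples were grouped by their titles. Named regions were the 8 widest, the 8 highest in score percentile, the 5 nearest to and the 5 farthest from a KO call, the 3 longest runs (ties by position) and those next to each bound. The set, the bins of score per kb and the groups within 1 Mb were chosen with earlier results of these data known. Counts of promoters and of cell-type genes had been planned for an mm9 annotation and were not made. Sequences are not shown.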

Additional observations from a re-analysis of the deposited data

How the results depend on the processing

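The number of members and their share of the mid-width regions, the number in the opposite direction, and the share of members in the 2 lowest deciles by score per kb were recomputed under each alternative. Dropping regions below the 25th percentile of score gave 735 members, 10.2% of the mid-width regions, 8 in the opposite direction and 93.2% in the 2 lowest deciles. Lists cut to one length gave 460 members, 6.4%, and 16 in the opposite direction. Bounds of 1200 to below 2500 bp gave 185 members, 3.74%, 0 in the opposite direction and 99.5% in the 2 lowest deciles, and bounds of 800 to below 4000 bp gave 571, 6.09%, 5 and 95.1%. WT 74 and KO 73 alone gave 772, 9.29%, 82 and 86.4%. Leaving out 1 library at a time gave from 406 to 682 members, from 5.61% to 9.14%, from 4 to 25 in the opposite direction and from 89.1% to 94.8%. Without chromosomes 14 and 5, an alternative chosen after seeing the data, 3.93% were absent and 99.2% lay in the 2 lowest deciles. The cause of these shifts was not tested, except that a wider or narrower bound or fewer required libraries admits more or fewer regions by construction. Merging regions up to 500 or 2000 bp apart gave 340 and 342 members, and adding X and Y gave 335. Reading absence by direct overlap gave 331 again. Union regions join only regions that overlap or touch, so that result was all but fixed in advance and is no check. The members' median score per kb ran from 43.0 to 46.3 in WT 66 and from 44.2 to 47.3 in WT 74 over all alternatives. The share absent on chromosome 14 ran from 12.8% to 23.7%. No paired analysis was possible because the KO and WT libraries share no number. Depth per region is known only through the deposited scores, so a region absent from a KO list may lie below what that list could detect.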
